A study of Rattus norvegicus with 59 samples.

Results

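Atp2a2, Ryr2 and Cacna1c, 3 genes that move calcium in the heart muscle cell, were followed across the nuclear RNA of a rat study of pathological and physiological heart growth. The genes were chosen by their Ensembl IDs, ENSRNOG00000001285 for Atp2a2, ENSRNOG00000017060 for Ryr2 and ENSRNOG00000007090 for Cacna1c, and all 3 were found among the 22938 genes of the count tables and among the 12848 genes of the table on sorted fractions. The files list genes by ID alone, so the names are those assigned to these IDs here.

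Nuclei of the left ventricle, taken from male Sprague Dawley rats, had been sorted for PCM1, a centriolar satellite protein on the surface of heart muscle cell nuclei. Banded rats, of about 170 g at the start, had a suture tightened around the ascending aorta and were kept after 6 weeks only if their hearts were hypertrophied and not failing. Sham rats, of the same starting weight, had the operation without that tightening. Trained rats, of about 280 g, ran intervals on an inclined treadmill for 6 weeks, and control rats of that weight were not trained. Each group had 4 RNA libraries with counts, 16 of the 59 samples of the series. The sample descriptions tie 1 PCM1-positive and 2 PCM1-negative RNA samples of control rats to the table on fractions, which holds no value per library. The labels name no genetic change in these rats. They also do not say that replicates were separate animals, so the spread that the p-values rest on may be technical.

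Each heartbeat starts with calcium entering through L-type channels, whose pore is the protein encoded by Cacna1c. That calcium opens the ryanodine receptor encoded by Ryr2, which releases a far larger store from the sarcoplasmic reticulum, and the pump SERCA2, encoded by Atp2a2, returns it so that the muscle relaxes. A lower level of SERCA2 is a known feature of failing, pressure-loaded hearts. Nuclear RNA holds new and unspliced transcripts beside mature ones, and counts per gene do not separate the splice forms of these genes, such as the cardiac and the general form of SERCA2.

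The start regions of the 3 genes are shown because these genes, all enriched in heart muscle nuclei, differ in the base composition there. Each runs from 250 bases before to 50 bases after the annotated start, 5′ to 3′ on the strand of the gene, from RefSeq on GRCr8, at chr12:39733269-39733568 on the plus strand for Atp2a2, chr17:63081277-63081576 on the plus strand for Ryr2 and chr4:154051699-154051998 on the minus strand for Cacna1c. Capitals mark the GC box GGGCGG and the CCAAT box CCAAT, each searched on both strands.
Atp2a2: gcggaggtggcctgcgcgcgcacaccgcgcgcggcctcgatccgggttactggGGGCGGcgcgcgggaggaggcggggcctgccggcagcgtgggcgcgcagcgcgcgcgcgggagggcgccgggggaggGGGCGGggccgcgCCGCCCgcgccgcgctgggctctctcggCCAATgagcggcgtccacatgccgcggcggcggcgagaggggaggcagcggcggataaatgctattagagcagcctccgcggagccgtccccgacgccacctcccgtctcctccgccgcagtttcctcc
Ryr2: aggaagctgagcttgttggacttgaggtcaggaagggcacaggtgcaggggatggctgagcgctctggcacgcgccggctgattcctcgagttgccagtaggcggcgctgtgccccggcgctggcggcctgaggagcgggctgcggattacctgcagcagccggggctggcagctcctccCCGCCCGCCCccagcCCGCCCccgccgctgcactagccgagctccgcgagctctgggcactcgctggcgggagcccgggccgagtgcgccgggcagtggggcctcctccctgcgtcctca
Cacna1c: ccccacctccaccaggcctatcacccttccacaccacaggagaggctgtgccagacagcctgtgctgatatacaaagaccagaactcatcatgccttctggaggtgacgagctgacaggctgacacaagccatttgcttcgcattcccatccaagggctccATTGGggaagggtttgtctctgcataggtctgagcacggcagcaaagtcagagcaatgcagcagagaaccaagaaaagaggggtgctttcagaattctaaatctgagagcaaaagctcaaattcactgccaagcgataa

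The Atp2a2 window was 79.0% G and C, above 98.8% of the 33469 windows of this length in the table, and the Ryr2 window 73.0%, above 95.1%. The Cacna1c window, at 51.7%, lay at the median of all windows, which was also 51.7%. Atp2a2 held 52 CG pairs, Ryr2 28 and Cacna1c 4. GC boxes matched 3 times in Atp2a2 and 3 times in Ryr2, where 2 of the matches overlapped, and not in Cacna1c, while 33.1% of all windows held at least 1. A CCAAT box matched once in Atp2a2 and once in Cacna1c, against 37.5% of all windows. An E-box CANNTG matched once in each of the 3, and in 72.1% of all windows. The TATA box TATAAA, the GATA core AGATAA and the MEF2 core TATTTATA matched in none of the 3, and were present in 14.2%, 11.6% and 1.80% of all windows. These matches describe the letters of the windows only, and other start sites of the genes were not examined.

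Total counts were 2575080 to 14394757 in banded, 3181309 to 14108697 in sham, 2136476 to 7595166 in trained and 1822538 to 7802197 in control libraries. Sham replicates 2 and 3 were the closest pair within any group, near the level of sampling noise. Over 10876 genes their squared difference was, on average, 1.27 times what counting alone gives, and the other 23 pairs of replicates were at 6.05 to 84.8 times, so the counts of this pair were added and used as 1 sample. Banded replicate 1 and sham replicate 1 stood apart from the rest. The 1319 genes that were over 8-fold higher in PCM1-negative nuclei by the authors' deposited table took 4.45% of the counts of banded replicate 1 (exact binomial 95% interval 4.44 to 4.46) and 4.32% of those of sham replicate 1 (4.31 to 4.33), against 0.536% to 1.68% in the other 14 libraries. Intervals on single libraries, here and for the levels, cover counting error only and take reads as independent. PCR copies of a fragment are not independent molecules, so these intervals may be too narrow. The lists of heart muscle, fibroblast, endothelial, smooth muscle, leukocyte and Schwann cell markers, and a list of other calcium handling genes, were written as gene names and could not be matched to the IDs, so the sort was not checked against its defining markers.

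All 3 genes were far more abundant in the RNA of PCM1-positive nuclei than in that of PCM1-negative nuclei. In the authors' deposited table, Ryr2 was 21.4-fold, Atp2a2 14.8-fold and Cacna1c 13.5-fold higher in PCM1-positive than in PCM1-negative nuclei. The table writes these as log2 fold changes of PCM1-negative over PCM1-positive nuclei, which were -4.42, -3.89 and -3.75, with the authors' false discovery rates of 0.0101, 0.00210 and 0.0326. The direction of its sign was read over all 12848 genes: levels of PCM1-positive nuclei predicted from the table correlated with control replicate 1 at r = 0.979 in this direction and at 0.766 in the other. All 3 genes thus passed a rate of 0.05 as higher in PCM1-positive nuclei, as did 24.0% of the genes in the table, and all 3 were among the 4.7% that were also more than 8-fold higher. Only 153 genes, 1.19% of the table, had a larger enrichment in PCM1-positive nuclei than Ryr2, against 296 genes (2.30%) for Atp2a2 and 345 (2.69%) for Cacna1c. These are the authors' values, with no replicate error of their own.

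**Figure D1:**
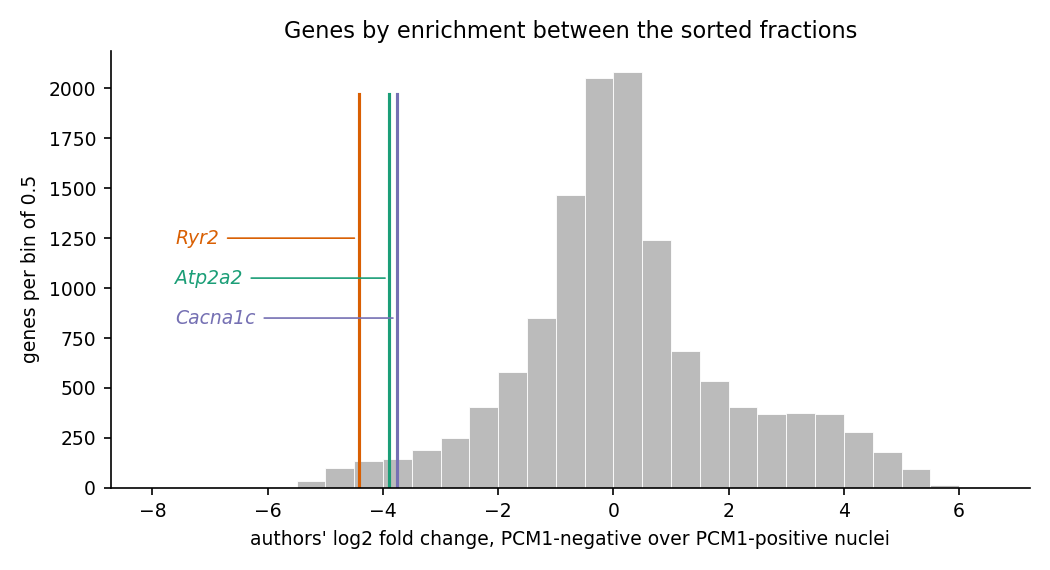
Number of genes (vertical axis, bins of 0.5) by the authors' log2 fold change of PCM1-negative over PCM1-positive nuclei (horizontal axis), with the 3 calcium handling genes as vertical lines. The lines stand at -4.42 for Ryr2, -3.89 for Atp2a2 and -3.75 for Cacna1c, in the left tail of the 12848 genes.

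The 3 genes together took 3.88% ± 0.525 of the counts in banded libraries (SD, n = 4), 3.95% ± 0.676 in sham (n = 3), 4.36% ± 0.178 in trained (n = 4) and 3.98% ± 0.142 in control libraries (n = 4). Counts per gene were large. The fewest were 7165 for Atp2a2, 21670 for Ryr2 and 40928 for Cacna1c, all in control replicate 2. The exact Poisson 95% interval of a single value was therefore 0.326% to 2.32% of it to either side. Levels are given as CPM (counts scaled to the total of the library), are not divided by gene length, and are compared for 1 gene at a time. Log2 fold changes come from the counts with TMM scaling of the library sizes, and can differ slightly from the ratio of the mean levels.

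Banded and sham rats were compared to see what pressure load does to each gene. None of the 3 differed beyond the spread between libraries, and in all 3 the groups overlapped.

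For Atp2a2, the pump of the sarcoplasmic reticulum, banded replicates 1 to 4 had 2912, 3726, 3078 and 3783 CPM, against 2935, 4354, 4287 and 3413 CPM in sham replicates 1 to 4. The lowest value of each group was replicate 1, and the sham pair of replicates 2 and 3 lay above all banded libraries. The mean was 3374 ± 444 CPM for banded (SD, n = 4) and 3554 ± 700 CPM for sham rats (SD, n = 3, the pair counted once), a log2 fold change of -0.09 (SE 0.27, 95% interval -0.71 to 0.54, edgeR quasi-likelihood test, adjusted p = 1.00). The interval allows folds of 0.612 to 1.45.

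For Ryr2, the release channel, banded replicates had 9038, 13363, 11894 and 15402 CPM, against 9123, 12527, 12471 and 15314 CPM in sham replicates. Both groups spanned the same range, with replicate 1 lowest and replicate 4 highest in each. The mean was 12424 ± 2676 CPM for banded and 12316 ± 3100 CPM for sham rats, a log2 fold change of 0.0013 (SE 0.36, 95% interval -0.83 to 0.83, edgeR adjusted p = 1.00), which allows folds of 0.563 to 1.78.

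For Cacna1c, the channel through which calcium enters, banded replicates had 19364, 25092, 24119 and 23523 CPM, against 19674, 25622, 26116 and 25229 CPM in sham replicates. Replicate 1 was again lowest in each group, and the other 3 sham libraries lay above the other 3 banded ones by little. The mean was 23024 ± 2525 CPM for banded and 23644 ± 3461 CPM for sham rats, a log2 fold change of -0.048 (SE 0.34, 95% interval -0.82 to 0.72, edgeR adjusted p = 1.00), which allows folds of 0.567 to 1.65.

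Thus 0 of the 3 genes passed the threshold for banding (Benjamini-Hochberg adjusted p under 0.05 over all genes) in edgeR, DESeq2 or limma voom, and 0 had an unadjusted p under 0.05 in any of these tools. Over all 12689 genes tested, 0.00788% passed in edgeR, and an unadjusted p was under 0.05 for 233 genes in edgeR, 267 in DESeq2 and 247 in limma voom. A further measure of background is that 3.2% of these genes had banded and sham libraries that did not overlap, as did 0 of the 3. The median log2 fold change was -0.048 over the 3 genes and -0.0080 over all genes tested. Regardless of sign, the median size over all genes tested was 0.14.

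**Figure D2:**
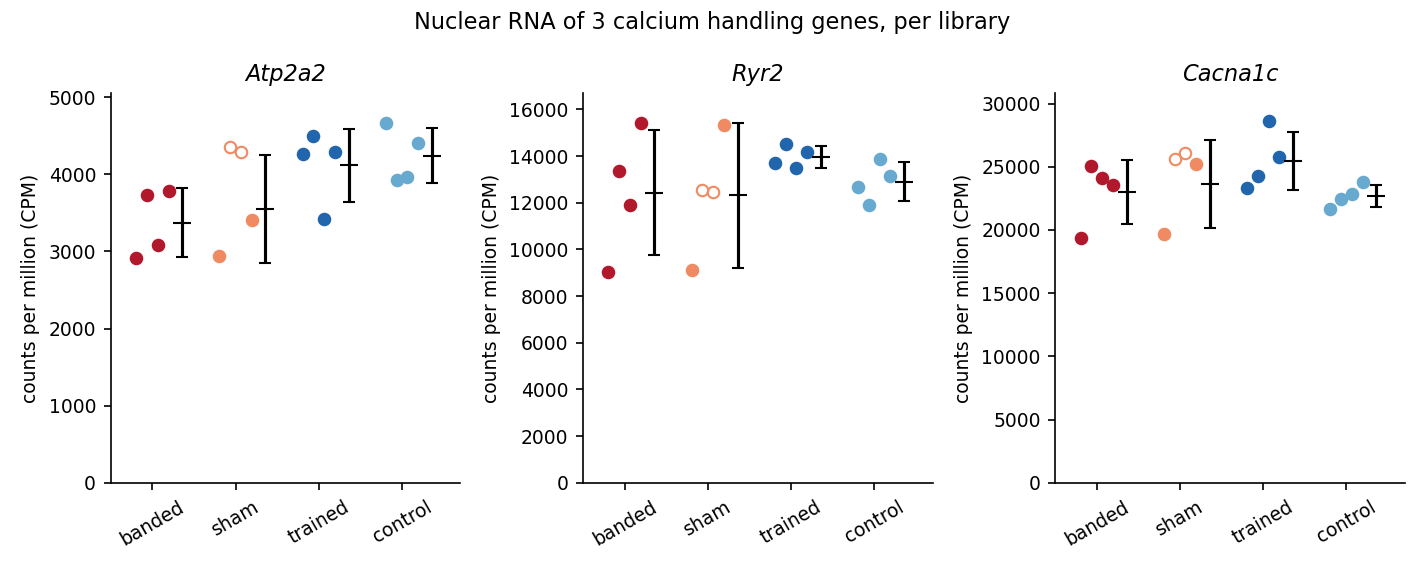
Level of Atp2a2, Ryr2 and Cacna1c (CPM, vertical axes from 0) in each library of the banded, sham, trained and control groups. Points are libraries in the order of their replicate numbers, open points are sham replicates 2 and 3, and bars are the mean and SD with that pair counted once. Replicate 1 is lowest among banded and sham libraries for all 3 genes, and all groups overlap their neighbours.

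Banded replicate 1 and sham replicate 1 were the libraries with the most RNA of PCM1-negative genes, and they were the lowest of the 16 for all 3 genes. Without both, banded rats averaged 3529 ± 392 CPM of Atp2a2 (SD, n = 3) and sham rats 3864 ± 638 CPM (n = 2), a log2 fold change of -0.14. For Ryr2 the mean was 13553 ± 1761 CPM for banded and 13913 ± 1981 CPM for sham rats, a log2 fold change of -0.054. For Cacna1c it was 24245 ± 792 CPM for banded and 25629 ± 566 CPM for sham rats, a log2 fold change of -0.094. The edgeR adjusted p was 1.00 for each of the 3 genes without these libraries.

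Over the 15 samples, deviations from the group means in log2 CPM went against those of the log2 share of PCM1-negative genes, with Pearson r = -0.73 for Atp2a2, -0.75 for Ryr2 and -0.91 for Cacna1c. Without the 2 libraries (n = 13), r was -0.24 for Atp2a2, 0.18 for Ryr2 and -0.61 for Cacna1c, so for Atp2a2 and Ryr2 the relation rested on them. Within the surgery experiment (n = 7) r was -0.92 for Atp2a2, -0.77 for Ryr2 and -0.96 for Cacna1c, and within the exercise experiment (n = 8) it was 0.40, -0.56 and -0.55 in the same order. The genes also varied with each other over the 15 samples, with r = 0.83 between Ryr2 and Cacna1c, 0.75 between Atp2a2 and Ryr2 and 0.62 between Atp2a2 and Cacna1c. Without the 2 libraries r was -0.0035 for Ryr2 and Cacna1c, 0.21 for Atp2a2 and Ryr2 and -0.24 for Atp2a2 and Cacna1c. All these values come from the same libraries and share their depth and scaling, and they are given as a description. The group means of the PCM1-negative share were 2.08% ± 1.62 in banded and 2.18% ± 1.90 in sham libraries, and its part in the levels of the 3 genes was not tested. In bulk nuclei, fewer heart muscle nuclei and less RNA of these genes per nucleus cannot be told apart.

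**Figure D3:**
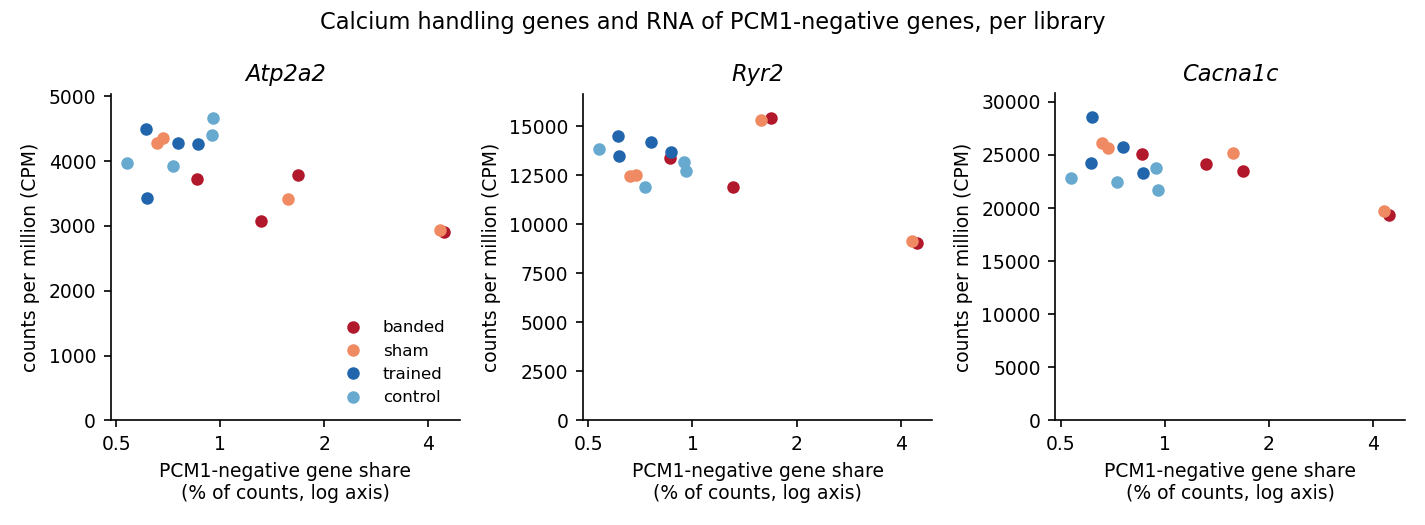
Level of each gene (CPM, vertical axes from 0) against the share of a library's counts from the 1319 genes over 8-fold higher in PCM1-negative nuclei (percent, log axis), for the 16 libraries. Banded replicate 1 (4.45%) and sham replicate 1 (4.32%) stand at the right and are lowest for all 3 genes.

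Trained and control rats were compared to follow exercise-driven growth. Cacna1c and Ryr2 averaged higher in trained rats and Atp2a2 slightly lower, and none of these differences passed the test.

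For Atp2a2, trained replicates 1 to 4 had 4259, 4493, 3425 and 4285 CPM, against 4670, 3931, 3966 and 4400 CPM in control replicates 1 to 4. Trained replicate 3 was the lowest of the 8, and the other 7 interleaved. Trained rats averaged 4116 ± 472 CPM and control rats 4242 ± 356 CPM (SD, n = 4 each), a log2 fold change of -0.0081 (SE 0.13, 95% interval -0.29 to 0.27, edgeR adjusted p = 0.999).

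For Ryr2, trained replicates had 13691, 14504, 13473 and 14176 CPM, against 12687, 11890, 13857 and 13161 CPM in control replicates. Control replicate 3 lay within the trained range and the other 3 control libraries below it. The mean was 13961 ± 466 CPM for trained and 12899 ± 827 CPM for control rats, a log2 fold change of 0.15 (SE 0.13, 95% interval -0.13 to 0.42, edgeR adjusted p = 0.850).

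For Cacna1c, trained replicates had 23321, 24270, 28587 and 25744 CPM, against 21663, 22457, 22841 and 23782 CPM in control replicates. Trained replicate 1 lay below control replicate 4, and the other 3 trained libraries lay above all controls. Trained rats averaged 25481 ± 2298 CPM and control rats 22686 ± 880 CPM, a log2 fold change of 0.20 (SE 0.14, 95% interval -0.093 to 0.50, edgeR adjusted p = 0.813). The interval allows folds of 0.937 to 1.41.

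In edgeR and in limma voom, 0 of the 3 genes passed for training and 0 had an unadjusted p under 0.05. DESeq2 also passed 0 of the 3 after adjustment, and Cacna1c alone had an unadjusted p under 0.05 there (0.0340). Of the 10815 genes tested, 0.0% passed in edgeR, while 758 had an unadjusted p under 0.05 and DESeq2 called 25 higher and 12 lower. Trained and control libraries did not overlap in 4.15% of these genes, and in 0 of the 3. The median log2 fold change was 0.15 over the 3 genes and -0.0077 over all genes tested. Regardless of sign, the median size over all genes tested was 0.14, so a difference of this size was typical of that set. The set was not matched to the high level of these 3 genes. The PCM1-negative share was 0.712% ± 0.123 in trained and 0.791% ± 0.200 in control libraries.

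The authors' deposited tables, with 1 log2 RPM value per group, also hold small differences, with far lower error rates for 2 of the genes. RPM is the number of reads scaled by the size of the library. In the authors' deposited table for exercise, Cacna1c was at 14.61 in trained and 14.47 in control rats, a 1.10-fold difference with a false discovery rate of 6.01e-74. In that authors' deposited table, Ryr2 was at 13.77 in trained and 13.66 in control rats, a 1.08-fold difference with a rate of 5.74e-36, and Atp2a2 was at 12.06 in trained and 12.03 in control rats with a rate of 0.235. For Atp2a2 the sign was positive there and negative in the fold change from the counts, both within the spread. In the authors' deposited table for surgery, Cacna1c was at 14.54 in banded and 14.63 in sham rats (0.937-fold, rate 1.81e-06), Atp2a2 at 11.73 in banded and 11.91 in sham rats (rate 1.00), and Ryr2 at 13.62 in banded and 13.61 in sham rats (rate 1.00). By the authors' rates at a threshold of 0.05, 2 of the 3 genes were higher and 0 of the 3 lower in trained rats, where 0.636% of the 22938 genes were higher, 0.632% lower and 1.27% either. For banded rats, 0 of the 3 genes were higher and 1 of the 3 lower, where 1.46% of the 22938 genes were higher, 1.17% lower and 2.63% either. No header or label names the test behind these rates. The fold changes from the counts take sham replicates 2 and 3 as 1 sample, and the deposited values may not. With that pair apart, the banding log2 fold change from the counts was -0.17 for Atp2a2, -0.0059 for Ryr2 and -0.083 for Cacna1c. The counting interval of a single Cacna1c value was at most 0.970% to either side, while the coefficient of variation between libraries was 9.02% in trained and 3.88% in control rats.

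**Figure D4:**
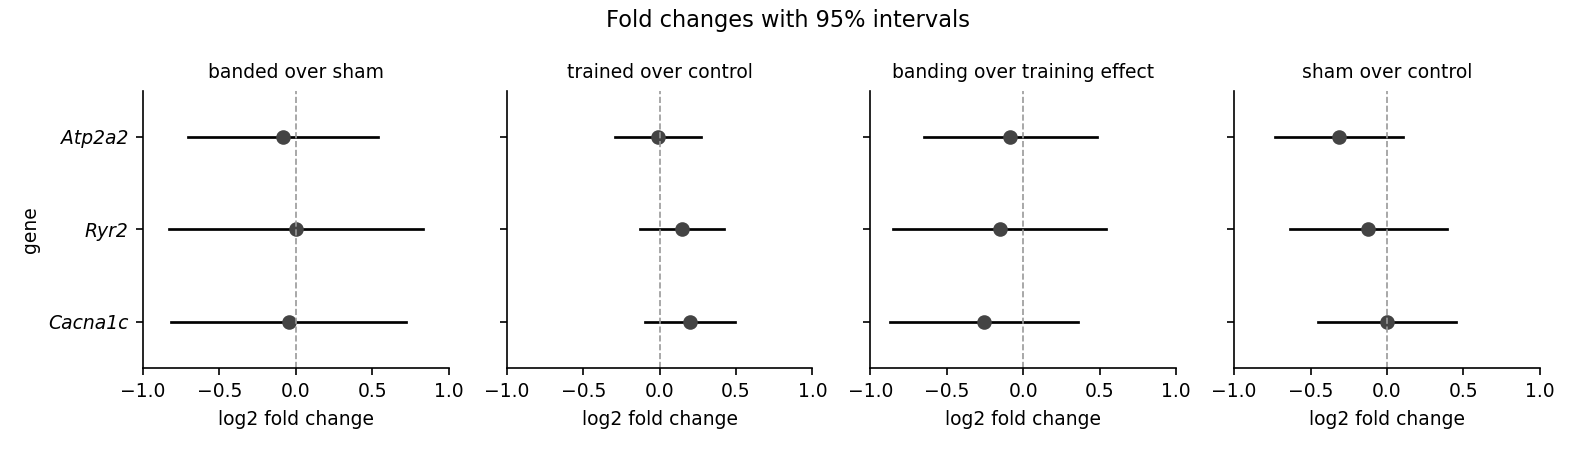
Log2 fold changes from the counts (points) with 95% intervals (lines) for banded over sham, trained over control, the banding effect minus the training effect, and sham over control, by gene. All 12 intervals include 0, and those of the trained over control comparison are the narrowest.

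Whether banding and training acted differently on a gene was tested in 1 fit of all 4 groups. The banding effect minus the training effect was -0.26 for Cacna1c (SE 0.29, 95% interval -0.87 to 0.36), -0.15 for Ryr2 (SE 0.33, -0.85 to 0.54) and -0.09 for Atp2a2 (SE 0.27, -0.65 to 0.48). The edgeR adjusted p was 1.00 for each, and 0.00791% of the 12650 genes tested passed. By edgeR, DESeq2 and limma voom alike, 0 of the 3 genes passed and 0 had an unadjusted p under 0.05. Of all 12650 genes, 488 in edgeR, 480 in DESeq2 and 494 in limma voom had one.

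Across the 4 groups, the order of the mean levels differed by gene. From high to low it was control, trained, sham and banded for Atp2a2, trained, control, banded and sham for Ryr2, and trained, sham, banded and control for Cacna1c. Neighbouring groups overlapped in all 9 steps of these 3 orders. Only the step between trained and control rats in Ryr2, 1062 CPM, was larger than the larger of the SDs, 827 CPM. Groups further apart in an order could be separate. For Atp2a2 all banded libraries (at most 3783 CPM) lay below all control libraries (at least 3931 CPM). Those groups come from different experiments and were not compared by a test. Between sham and control rats, which differ in experiment, starting weight and surgery at once so that these cannot be told apart, the log2 fold change was -0.31 for Atp2a2 (SE 0.20, 95% interval -0.73 to 0.11, edgeR adjusted p = 0.451), -0.12 for Ryr2 (SE 0.24, adjusted p = 0.859) and 0.0008 for Cacna1c (SE 0.21, adjusted p = 1.00). In this comparison 0.941% of the 12650 genes passed. Here too 0 of the 3 genes passed or had an unadjusted p under 0.05 in edgeR, DESeq2 or limma voom. Of all 12650 genes, 2133 in edgeR, 2186 in DESeq2 and 1694 in limma voom had such a p, and DESeq2 called 246 higher and 237 lower.

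The spread within groups was wider in the surgery experiment. The SD of log2 CPM for Ryr2 was 0.41 in banded and 0.47 in sham, against 0.060 in trained and 0.12 in control libraries. For Atp2a2 it was 0.27 in banded, 0.37 in sham, 0.18 in trained and 0.11 in control libraries, and for Cacna1c 0.27, 0.32, 0.13 and 0.054 in the same order. Pooled over the groups, the SD was 0.24 for Atp2a2, 0.30 for Ryr2 and 0.21 for Cacna1c, beside a median of 0.32 over the 12650 genes tested. Among genes within 1 log2 CPM of the same level, the median SD was 0.29 for Atp2a2 (40 genes), 0.25 for Ryr2 (4 genes) and 0.25 for Cacna1c (2 genes), so Ryr2 was above that median and the other 2 genes below it. Much of the surgery spread lay in banded replicate 1 and sham replicate 1. Without them the SD in log2 CPM was 0.19 in banded and 0.25 in sham libraries for Atp2a2, 0.19 in banded and 0.19 in sham libraries for Ryr2, and 0.10 in banded and 0.044 in sham libraries for Cacna1c. Both Cacna1c values were then below that of trained libraries, and the sham value also below that of control libraries, while those of Ryr2 and Atp2a2 were still above both. These SDs rest on 3 banded and 2 sham samples, too few to rank the spreads.

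The ratio of a pair of these genes within 1 library needs no scaling, and gene length cancels when it is compared between groups. It tells whether uptake, release and entry genes keep their proportions. The log2 ratio of Atp2a2 to Ryr2 counts was -1.63, -1.84, -1.95 and -2.03 in banded replicates 1 to 4, against -1.64, -1.52, -1.54 and -2.17 in sham replicates. It was -1.68, -1.69, -1.98 and -1.73 in trained replicates, against -1.44, -1.60, -1.81 and -1.58 in control replicates. In both experiments the libraries of the groups overlapped, with sham replicate 4 the lowest of the 16 and control replicate 1 the highest.

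The mean Atp2a2 to Ryr2 ratio differed by -0.084 between banded and sham rats (exact permutation test, two-sided, p = 0.714) and by -0.16 between trained and control rats (p = 0.171). The Atp2a2 to Cacna1c ratio differed by -0.032 with banding (exact permutation p = 0.771) and by -0.21 with training (p = 0.343). The Ryr2 to Cacna1c ratio differed by 0.052 with banding (exact permutation p = 0.686) and by -0.048 with training (p = 0.657). Adjusted over the 6 comparisons, p was 0.771 for each, and the smallest unadjusted p these group sizes allow is 0.0286. Beside the other p-values found here, that smallest p adjusts to 0.171. No single ratio could therefore have passed, and the test cannot tell whether the proportions were kept. The libraries behind the extremes were trained replicate 3, with the highest Cacna1c and the lowest Atp2a2 of the trained rats, at an Atp2a2 to Cacna1c log2 ratio of -3.06, and banded replicate 4 and sham replicate 4, with the highest Ryr2 of their groups, at Ryr2 to Cacna1c log2 ratios of -0.61 and -0.72.

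**Figure D5:**
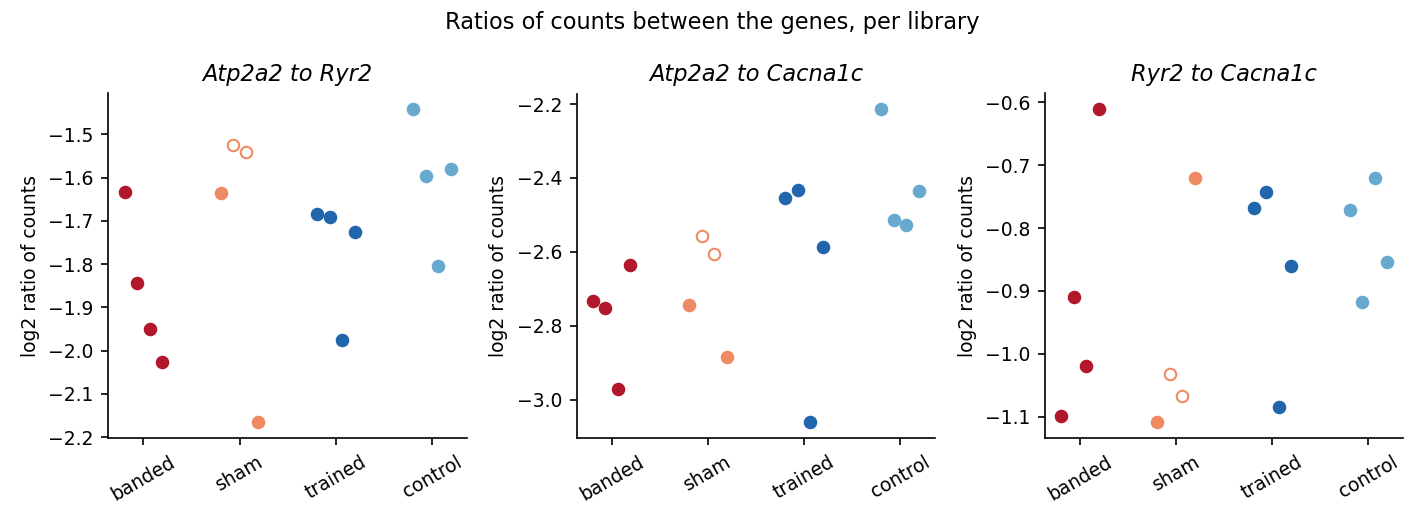
Log2 ratio of counts for Atp2a2 to Ryr2, Atp2a2 to Cacna1c and Ryr2 to Cacna1c in each library (vertical axes do not start at 0), by group, with sham replicates 2 and 3 as open points. In each panel banded overlap sham libraries, and trained overlap control libraries. For Atp2a2 to Cacna1c all banded and sham libraries, from another experiment, lie below all control libraries. Trained replicate 3 is the lowest trained library in all 3 panels.

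The genes whose levels followed each member most closely were ranked by Pearson r of deviations from the group means over the 15 samples, among 12649 other genes. Atp2a2 was followed by ENSRNOG00000032630 (r = 0.97) and ENSRNOG00000024411 (0.93), whose log2 fold changes of PCM1-negative over PCM1-positive nuclei in the authors' deposited table were -0.44 and -1.58. Ryr2 was followed by ENSRNOG00000009957 (r = 0.95) and ENSRNOG00000000588 (0.94), at -3.43 and -3.54 in the authors' deposited table. Cacna1c was followed by ENSRNOG00000027480 (r = 0.95) and ENSRNOG00000019843 (0.94), at -4.34 and -1.73 in the authors' deposited table. In these rankings Cacna1c came 70th and Atp2a2 256th for Ryr2, Ryr2 came 110th and Atp2a2 982nd for Cacna1c, and Ryr2 came 134th and Cacna1c 580th for Atp2a2. Without banded replicate 1 and sham replicate 1 (n = 13), r with the 2 leading partners was 0.94 and 0.90 for Atp2a2, 0.76 and 0.63 for Ryr2 and 0.74 and 0.84 for Cacna1c. Between the 3 genes r was then -0.24 to 0.21, as given above. The files pair none of these partner IDs with a name.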

How the data were processed

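For 16 libraries of PCM1-positive nuclei the authors deposited whole-number counts for each gene, with a smallest stored count of 1. The authors also deposited 1 log2 RPM value for each group and, per the file headers, a false discovery rate, which is an adjusted p-value, as well as log2 fold changes with such rates between PCM1 fractions. Bowtie, SAMtools, R 2.15.1 and edgeR appear in the submitters' processing notes with no role. No source used here states the genome build, the counting rule or the use of strand, so overlapping or antisense genes may share reads. The exercise file has 2 lines without a gene ID, of which the last repeats the totals, and both were left out.

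Counts were tested over all genes with edgeR 4.0.16 (quasi-likelihood, TMM, filterByExpr with minimum count 10 and total 15, Benjamini-Hochberg, threshold 0.05) in R 4.3.3, surgery and exercise separately. SEs come from the F statistic. All 3 genes passed the filter. DESeq2 1.42.0, limma 3.58.1 voom, other scalings and left-out libraries were alternatives. Sham replicates 2 and 3 were added, less 1. Functions were tested on simulated data. Python 3.11.15, scipy 1.17.1 and matplotlib 3.10.9 served for ratios and figures. The 3 genes are always named, and for each the 2 genes with the most similar deviations. Of 47357 reference genes 0 carried an Ensembl ID, so lists written as names were not analysed here. Chromatin bins were not used here, since their build is not stated. The genes, lists and tests were chosen with earlier results of these data known. Spread and likeness without banded and sham replicate 1 were added after seeing the data.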

Additional observations from a re-analysis of the deposited data

Results flagged for a closer look

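Among the 21 groups of 4 libraries examined for a library far from the rest (levels, ratios and the PCM1-negative share in banded, trained and control rats), 1 was found, where chance gives about 1 in 20. In trained rats the log2 ratio of Atp2a2 to Ryr2 was -1.98 in replicate 3, whose distance to the nearest of the other 3 was 0.857 of the range of the group and above the 95% limit of Dixon's test for 4 values. That library also had the lowest Atp2a2 level and the highest Cacna1c level of the trained rats. Sham rats, with 3 samples after the pair was added, were not examined in this way.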

How the results depend on the processing

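No call was gained or lost: over 18 results and 300 values under alternatives, 0 passed the threshold. The lowest adjusted p was 0.161 (edgeR, Atp2a2, sham minus control, without sham replicates 2 and 3). Among the values, 37, all of uncalled differences, changed sign. The values of the ratio results could not have passed, since the smallest p of the exact permutation test, 0.0286, adjusts to 0.171. That smallest p was reached for Atp2a2 to Ryr2 with training, without control replicate 3. With 1 library left out in turn, the log2 fold change of banding ranged over -0.27 to 0.028 for Atp2a2, -0.23 to 0.23 for Ryr2 and -0.22 to 0.075 for Cacna1c. That of training ranged over -0.062 to 0.074, 0.11 to 0.20 and 0.15 to 0.24 in the same order. The banding effect minus the training effect ranged over -0.26 to 0.014, -0.38 to 0.056 and -0.43 to -0.15, and sham minus control over -0.35 to -0.15, -0.33 to 0.088 and -0.069 to 0.16. For the ratios of Atp2a2 to Ryr2, Atp2a2 to Cacna1c and Ryr2 to Cacna1c the ranges were -0.28 to -0.012, -0.10 to 0.034 and -0.048 to 0.17 with banding and -0.23 to -0.094, -0.28 to -0.069 and -0.089 to 0.025 with training. Without sham replicates 2 and 3 together, banding effects changed sign to 0.12 for Atp2a2 and 0.059 for Cacna1c, the difference of effects to 0.11 for Atp2a2, sham minus control to -0.11 for Cacna1c (for Atp2a2 it was -0.51, unadjusted p = 0.0278 by edgeR, against -0.058 with no filter on low counts), and the banding differences of the Atp2a2 to Ryr2 and Atp2a2 to Cacna1c ratios to 0.038 and 0.042. The Ryr2 banding effect was -0.14 with no filter on low counts, -0.0059 with the sham pair apart and -0.054 without banded and sham replicate 1, and Ryr2 sham minus control was 0.13 with no filter and 0.087 without those libraries. Cacna1c sham minus control was -0.0064 with RLE factors, -0.0064 in DESeq2, -0.021 in voom and -0.046 with 1 subtracted from every count. The cause of these changes was not tested.

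With a replicate block in the fit (and sham replicates 2 and 3 apart), banding effects were -0.16 for Atp2a2, -0.011 for Ryr2 and -0.083 for Cacna1c (SE 0.16, 0.16 and 0.17; edgeR adjusted p = 0.912, 0.996 and 0.970), and no call changed. Deviations of same-numbered banded and sham libraries correlated at 0.77, 0.52, 0.16 and 0.089 for replicates 1 to 4. Those of trained and control libraries correlated at -0.024 to 0.14. Only replicate 1 in surgery and replicate 3 in exercise matched best with their own number, so the numbers were not taken as pairs. The block did lower the banding SEs, which without it and with the sham pair apart were 0.24, 0.30 and 0.28 in the same order of genes. An unadjusted edgeR p was under 0.05 for 792 of 12305 genes with the block and 420 without it. Both of these fits took sham replicates 2 and 3, which were near sampling noise, as 2 samples, so their SEs may be too small. Whether same-numbered surgery libraries shared a batch was not tested, so the main banding intervals may be too wide. At the depth of these libraries, counting error on these 3 genes, with reads taken as independent, was below the spread between libraries.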
